A study of Arabidopsis thaliana with 43 samples.

Results

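The mitochondrial genome of the thale cress Arabidopsis thaliana was represented in the deposited tables by 152 loci, taken as every locus whose identifier begins with ATMG. They stood among 32507 loci in all, of which 32222 were nuclear and 133 plastid. The libraries came from wild-type Col-0 embryos without any treatment, at 8 stages of 3 libraries each. In order of age these were the preglobular, globular, early heart and late heart stages, then early and late torpedo, bent cotyledon and mature green. These 24 libraries were made with Smart-seq2, a method that primes on poly(A) tails and amplifies full-length cDNA. The bent cotyledon libraries of the stage series were made from 5 ng of total RNA, and the amount is given as unknown at the other stages. Bent cotyledon RNA was also prepared with Smart-seq2 at 0.1, 0.5 and 1 ng (3 libraries each), and with Nugen's Ovation PicoSL WTA System V2 and Clontech's SMARTer Ultra Low Input RNA kit at 0.05, 0.1, 0.5, 1 and 5 ng (1 library each). Each collection held 50 embryos. The mature green titles number the replicates 1 to 3 while their descriptions call each the first, so the spread at that stage may leave out differences between collections.

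Plant mitochondria keep a small genome that encodes parts of the respiratory chain (complexes I, III and IV and the ATP synthase), proteins that attach heme to cytochromes c, some ribosomal proteins, rRNAs and tRNAs. Most other mitochondrial proteins are encoded in the nucleus and imported. In plant mitochondria a poly(A) tail is known to promote RNA decay, unlike on nuclear mRNA. Chromosome 2 of Col-0 is known to hold a large inserted copy of mitochondrial DNA near its centromere.

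Of the 152 loci, 29 could be named from the RefSeq annotation, 17 through its notes on chromosome 2 copies and 12 through a transcript length shared with a single mitochondrial gene. Where a locus had both a note and such a length match, 8 of 9 gave the same name. The exception was ATMG01010, which has the 357 bases of nad3. Its note names no gene, and the note for ATMG00990 names nad3, so names by length alone are less certain. The named loci comprised 6 of complex I, 1 of complex III, 3 of complex IV, 5 of the ATP synthase, 5 of cytochrome c maturation, 7 ribosomal proteins and 2 rRNAs. A further 27 loci were of tRNA length (70 to 90 bases) and 96 had no name. RefSeq also lists nad5, nad6 and nad4L of complex I, the genes matR and mttB, and the large-subunit rRNA, rrn26. None of these was matched to a single locus by note or length. Loci of complex I and an rRNA may therefore stand among the loci without a name. ATMG00513 has 1446 bases, as many as the nad5 coding bases that aligned to chromosome 2, and may be part of nad5. The length of nad4L, 303 bases, is shared by ATMG00650, ATMG00740, ATMG00770 and ATMG01240. That of nad6, 618 bases, is shared by ATMG00270 and ATMG01260. Which of these loci, if any, is the gene was not tested. Counts for complexes and rRNAs below cover named loci only.

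The sequence of atp9, the ring subunit of the ATP synthase, shows why levels of single loci need the chromosome 2 copy beside them. The coding sequence lies at chrM:270961-271185 on the minus strand and is repeated without a difference at chr2:3251856-3252080 on the minus strand (RefSeq, build TAIR10.1). Capitals mark the start and stop codons.

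atp9: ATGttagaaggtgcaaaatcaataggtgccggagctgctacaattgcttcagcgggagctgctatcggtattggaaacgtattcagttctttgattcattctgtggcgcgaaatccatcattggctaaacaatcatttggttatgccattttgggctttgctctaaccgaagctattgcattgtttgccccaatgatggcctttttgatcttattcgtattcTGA

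By the genomic sequence alone, a short read from this stretch cannot be assigned to either genome. The gene ccmFN1, for a subunit of the heme lyase of cytochrome c maturation, differs by 1 base over its coding sequence, C54T, with the mitochondrial base first and positions counted from 1 at the start of the coding sequence. The windows around it lie at chrM:316046-316086 and chr2:3297923-3297963, both on the plus strand, and the capital marks the base that differs.

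ccmFN1 mitochondrial: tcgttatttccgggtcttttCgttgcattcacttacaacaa
ccmFN1 chromosome 2: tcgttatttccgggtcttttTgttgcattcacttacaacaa

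Of 35 mitochondrial protein and rRNA genes of RefSeq, 15 were identical over their full length to a stretch of chromosome 2, and 6 had no alignment there (atp4, ccmB, nad4L, nad9, rrn26 and rrn5). Of the 152 measured loci, 45 had an annotated copy among the measured chromosome 2 transcripts, 17 of them named. The copies held more estimated counts than the mitochondrial loci for 31 of these 45 over the 24 stage libraries. The share varied widely. For nad3, of complex I, the mean estimated count at preglobular was 0 in the mitochondrial locus and 1577.2 in the copy. For atp9 it was 98.9 in the mitochondrial locus and 4805.2 in the copy, so that the copy held 98% of the sum. For atp1, the alpha subunit of the ATP synthase, the copy held 34.0% of the sum at preglobular, and for atp6-1, the proton channel subunit, the copy held 0. The loci atp8 and rps12 and their copies had equal mean counts at both ends of the series. How reads fell between the genomes is decided by the authors' counting, and the origin of the RNA was not tested.

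**Figure D1:**
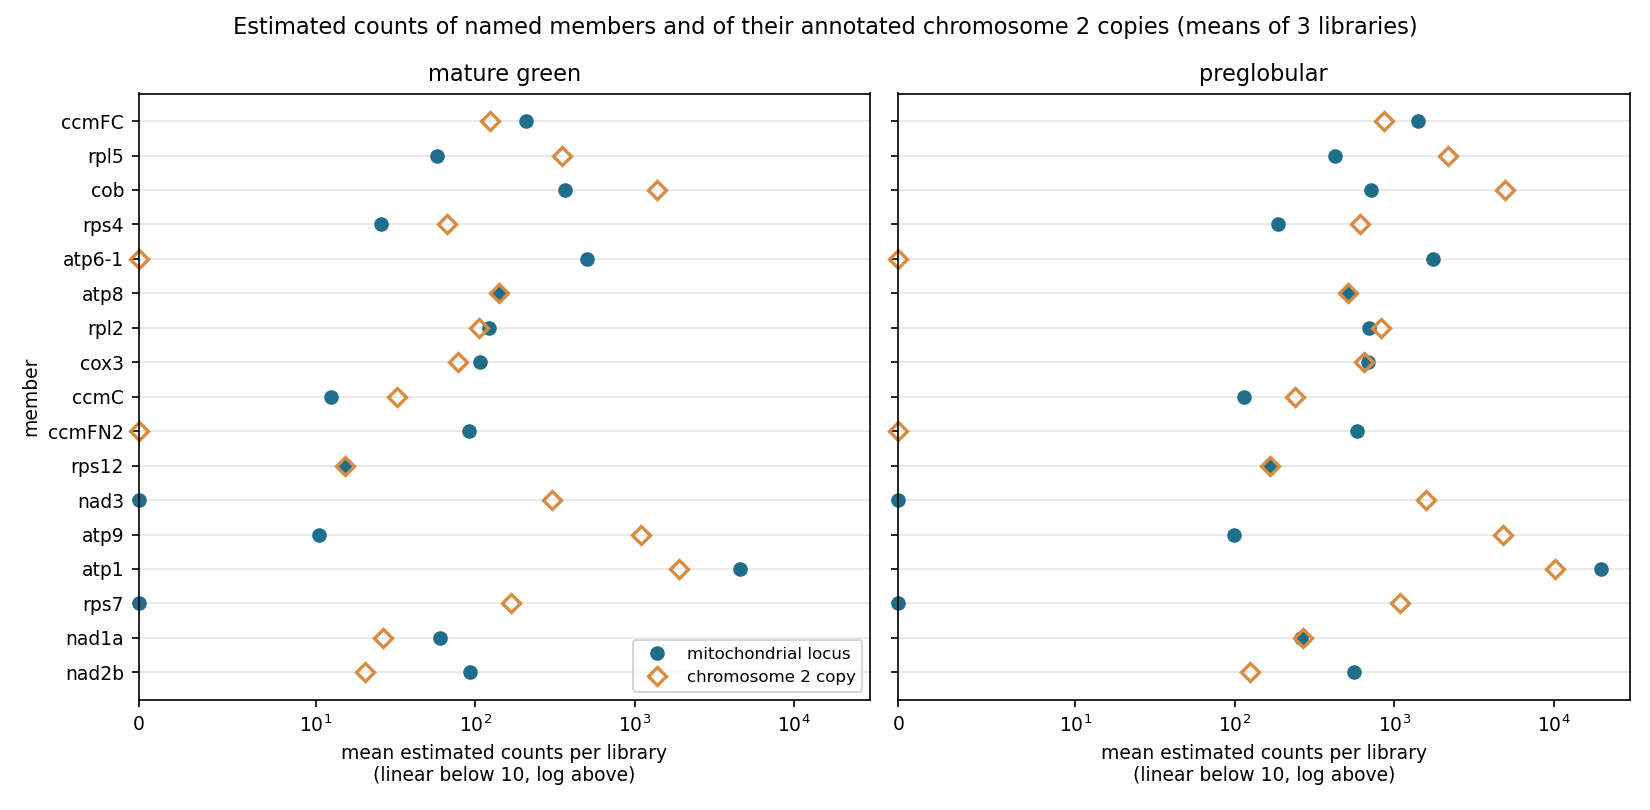
Mean estimated counts per library of 17 named mitochondrial loci (filled circles) and of their annotated chromosome 2 copies (open diamonds), in mature green (left) and preglobular (right) libraries, n = 3 each, on an axis that is linear below 10 and logarithmic above. The copies of nad3, rps7, atp9 and cob lie right of the mitochondrial loci at both stages, and atp8 and rps12 coincide with theirs.

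The stage libraries held 8432892 to 11552331 estimated counts at bent cotyledon and 17769463 to 35807605 at the other stages. The Ovation libraries held 3825129 to 8537889 and the SMARTer libraries 2325110 to 11870863. The embryo genes LEC1 and WOX2 summed to 337 to 347 TPM at preglobular, 29.4 to 36.9 TPM at bent cotyledon and 0 to 0.273 TPM at mature green, and these genes are regulators of early embryo development. The storage protein genes SESA3 and CRA1 summed to 6808 to 8497 TPM at bent cotyledon and 147361 to 170327 TPM at mature green, and their part in the mitochondrial shares of TPM was not tested. The 5 endosperm markers summed to at most 4.18 TPM and the 3 seed coat markers to at most 7.65 TPM in any stage library. TPM (transcripts per 1000000, scaled to length) is a share of the library, whereas the tests used counts rescaled by the trimmed mean of M values (TMM), with factors of 0.553 to 0.628 at mature green and 0.838 to 1.30 elsewhere.

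By stage mean, mitochondrial transcripts made up the largest share of the libraries at the first stage and the smallest at the last, with a second high level at bent cotyledon. In the order of the stages from preglobular to mature green, their mean share of TPM was 2.25% ± 0.176, 1.78% ± 0.264, 1.88% ± 0.497, 1.5% ± 0.171, 1.01% ± 0.107, 0.912% ± 0.0901, 1.70% ± 0.204 and 0.470% ± 0.0973 (SD, n = 3 each). The 3 bent cotyledon libraries, at 1.47% to 1.87%, lay above all 3 late torpedo libraries, at 0.836% to 1.01%, and above all 3 mature green libraries, at 0.391% to 0.579%. The early heart libraries spread from 1.32% to 2.27%, which covers every globular library and overlaps the preglobular ones, at 2.09% to 2.44%. The plastid-encoded loci, given for scale, made up 1.67% ± 0.296 of TPM at preglobular, 13.3% ± 1.47 at bent cotyledon and 2.69% ± 0.704 at mature green (SD, n = 3 each). In such bulk samples, fewer mitochondria or genome copies per cell and less RNA per copy cannot be told apart, nor can fewer cells of a type and less RNA per cell. Smart-seq2 primes on poly(A) tails, and how much of the mitochondrial RNA carried a tail at each stage was not tested.

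**Figure D2:**
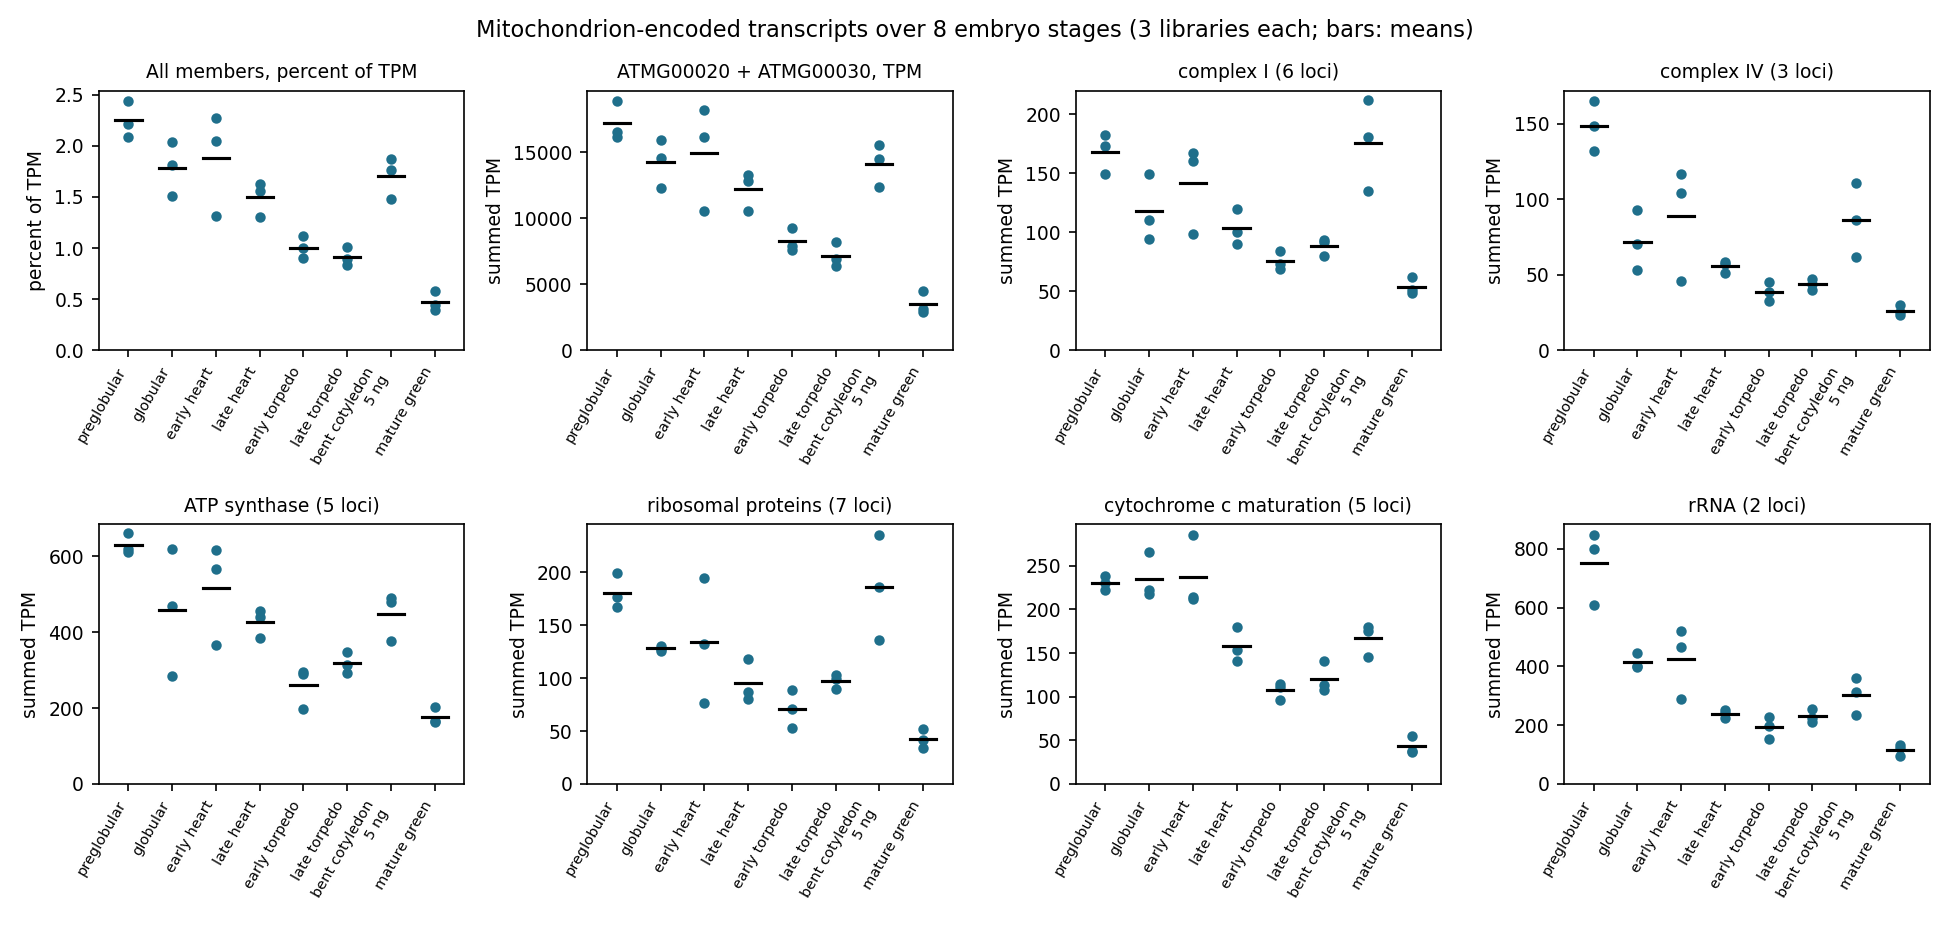
Summed level of mitochondrion-encoded transcripts in each of 24 Smart-seq2 libraries over 8 embryo stages (points) with the stage mean (bars), as percent of TPM for all 152 loci and as summed TPM for ATMG00020 with ATMG00030 and for 6 classes of named loci. The share of TPM averages 2.25% at preglobular and 0.470% at mature green, with 1.70% at bent cotyledon between late torpedo (0.912%) and mature green.

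Most of this signal came from 2 loci without a name in the annotation, ATMG00020 (2568 bases) and ATMG00030 (324 bases). RefSeq gives the large-subunit rRNA rrn26 3169 bases, and whether either locus is part of it was not tested. Together they made up 74.5% to 83.0% of mitochondrial TPM in the stage means. At preglobular, ATMG00020 averaged 8685 ± 621 TPM and ATMG00030 8480 ± 856 TPM (SD, n = 3), a difference within their spread. On the same scale the next levels were atp1 at 475 ± 15.8 TPM, the small-subunit rRNA rrn18 at 422 ± 75.2 TPM, whose spread reaches atp1, and the 5S rRNA rrn5 at 330 ± 55.5 TPM (SD, n = 3). Because TPM is scaled to length, short loci such as rrn5 (118 bases) and ATMG00030 reach a given TPM with fewer counts. The order by counts can therefore differ. Among the other named loci ccmFN1 averaged 122 ± 7.01 TPM and cox1, the core subunit of complex IV, 107 ± 13.3 TPM, while nad4 of complex I had 61.9 ± 5.08 TPM and cob, the cytochrome b of complex III, 22.1 ± 4.54 TPM (SD, n = 3). The lowest level of a named locus with counts in all 3 preglobular libraries was that of ccmC, a heme export subunit, at 5.69 ± 0.370 TPM (SD, n = 3), close to rps4 at 6.28 ± 1.9 TPM.

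Levels behind the tests are given as CPM (counts per 1000000 of a TMM-scaled library). For the tests, 121 of the 152 loci passed the filter on low counts, which keeps a locus that is high in any 1 stage. Of the others, ATMG00590 and ATMG00665 had no count in any of the 43 libraries, and 9 loci had under 5 counts over the 24 stage libraries. In 8 pairs of loci both members had the same counts in every library, so that the pair is 1 measurement. Of the 121 loci, 108 had their highest stage mean at preglobular, 5 at globular, 7 at bent cotyledon and 1 at mature green. Their lowest means lay at early torpedo for 38, mature green for 31, late heart for 21 and late torpedo for 18. Stages of the highest and lowest mean were not counted over all tested loci, so no background share stands beside these counts.

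Across the whole series, mature green against preglobular, the mitochondrial loci were lower almost throughout. In edgeR's quasi-likelihood test over 21014 loci (Benjamini-Hochberg adjusted p under 0.05), 100 of the 121 tested loci fell, none rose and 21 did not pass. Among all tested loci 37.4% were called lower, 38.5% higher and 75.9% either way. The median log2 fold change was -1.98 for the mitochondrial loci and 0.05 for all tested loci. On log2(TPM + 1) with limma, these medians were -2.0 and -0.26. Under every alternative fit, leaving out 1 library included, between 93 and 117 mitochondrial loci were called and none of them rose. Here and below, shares of all loci called are those of the main edgeR fit, and counts from other fits stand without such a share.

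Both loci with the highest levels fell. ATMG00020 had 7369, 6284 and 4062 CPM in mature green libraries, against 24436, 28381 and 33354 CPM in preglobular libraries. No library of the 2 stages overlapped, and the log2 fold change was -2.28 (SE 0.25, edgeR adjusted p = 5.26e-08). ATMG00030 had 1303, 782 and 1247 CPM in mature green libraries, against 2381, 2660 and 3398 CPM in preglobular libraries, a log2 fold change of -1.34 (SE 0.25, adjusted p = 5.55e-05). The next unnamed locus by level, ATMG00513, did not follow them. It had 353, 363 and 328 CPM in mature green libraries, against 295, 372 and 376 CPM in preglobular libraries, and the groups overlapped (log2 fold change 0.00, SE 0.40, edgeR adjusted p = 1). ATMG01200, with a log2 fold change of -1.9 (SE 0.28), and ATMG00660, with -2.41 (SE 0.23), passed the test.

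Complex I, the NADH dehydrogenase that feeds electrons into the chain, had 5 tested loci with a name, and all 5 fell. ATMG00513, which may be part of nad5, did not pass, as given above. The core subunit nad7 had 8.05, 5.94 and 7.5 CPM in mature green libraries, against 25.7, 35.1 and 39.9 CPM in preglobular libraries. Every mature green library lay below every preglobular one, and the log2 fold change was -2.23 (SE 0.28, edgeR adjusted p = 3.32e-07). The log2 fold changes of nad2b, nad1a, nad9 and nad4 were -1.81, -1.35, -0.81 and -0.73, the last with an SE of 0.28. For nad1a, a membrane subunit, the value with the chromosome 2 copy added was -1.84. The sixth locus, nad3, could be tested only with its copy added, and then fell by 1.59 on the log2 scale (SE 0.23, adjusted p = 2.07e-06).

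All 3 loci of complex IV, cytochrome c oxidase, fell. The core subunit cox1 had 57.6, 50.4 and 54.3 CPM in mature green libraries, against 170, 217 and 260 CPM in preglobular libraries. The groups did not overlap, and the log2 fold change was -2.0 (SE 0.33, edgeR adjusted p = 1.18e-05). The copper-binding subunit cox2 had a log2 fold change of -1.93 (SE 0.26), and cox3 one of -1.88 (SE 0.35). For complex III, cob had 29.2, 27.0 and 31.2 CPM in mature green libraries, against 24.2, 31.1 and 42.9 CPM in preglobular libraries. These overlapped, and the log2 fold change of -0.17 (SE 0.79) did not pass (edgeR adjusted p = 0.853). The cob copy on chromosome 2 had 1377.2 mean counts at mature green, against 4950.4 at preglobular, and with both summed the log2 fold change was -0.91 (SE 0.35, adjusted p = 0.0249).

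The 5 loci of the ATP synthase all fell. The most abundant of them, atp1, had 393, 336 and 367 CPM in mature green libraries, against 836, 887 and 1004 CPM in preglobular libraries. The log2 fold change was -1.32 (SE 0.25, edgeR adjusted p = 8.6e-05), and the groups lay far apart. The peripheral stalk subunit atp4, which has no alignment on chromosome 2, had a log2 fold change of -1.48 (SE 0.32), and atp6-1 and atp8 had -1.01 and -1.05. Among these 5, adding the chromosome 2 copy moved atp9 most: the log2 fold change was -2.47 (SE 0.55) for the mitochondrial locus and -1.34 (SE 0.25) with the copy added, both past the test.

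Cytochrome c maturation and the mitochondrial ribosome showed the same direction. All 5 maturation loci fell, by 1.72 to 2.41 on the log2 scale. The highest of them, ccmFN1, had 64.2, 40.7 and 36.4 CPM in mature green libraries, against 166, 175 and 176 CPM in preglobular libraries (log2 fold change -1.87, SE 0.23, edgeR adjusted p = 3.27e-07). Of 6 tested ribosomal protein loci 5 fell, the largest change being that of rps12 at -2.65 (SE 0.33), and rps4 did not pass at -2.05 (SE 1.00, adjusted p = 0.0692). With copies added rps4 reached -2.32 (adjusted p = 3.5e-06), and rps7, which had no counts in the mitochondrial locus, reached -1.9. Both rRNAs fell. The locus rrn18 had 321, 200 and 310 CPM in mature green libraries, against 746, 1165 and 1231 CPM in preglobular libraries (log2 fold change -1.92, SE 0.31, edgeR adjusted p = 9.23e-06), and rrn5 had a log2 fold change of -2.43 (SE 0.26).

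Among 81 tested loci without a name 69 fell, and among 13 of tRNA length 6 fell. By fitted change, the most reduced loci were ATMG00610, ATMG01280 and ATMG01010. ATMG00610 had no count at mature green, against 0.499, 2.02 and 0.469 CPM in preglobular libraries. It was at least 12.6-fold lower at mature green, at a floor of 3 counts over the libraries of the stage, which covers counting error only. This bound was 6.04-fold without preglobular replicate 2, which held most of the counts, and 8.24-fold to 8.62-fold without any 1 of the mature green libraries. With its copy added, ATMG00610 fell by 1.74 on the log2 scale (SE 0.31). ATMG01280 had 0, 1.14 and 0.583 CPM in mature green libraries, against 11.5, 17.1 and 15.7 CPM in preglobular libraries, a log2 fold change of -4.66 (SE 0.52) that was -2.42 (SE 0.30) with its copy added. ATMG01010 had a log2 fold change of -3.43 (SE 0.76), and of -4.43 (SE 0.45) with its copy added. RefSeq notes call the product of the ATMG00610 copy a putative membrane lipoprotein and that of the ATMG01280 copy like the transmembrane domain of cytochrome c oxidase subunit II.

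**Figure D3:**
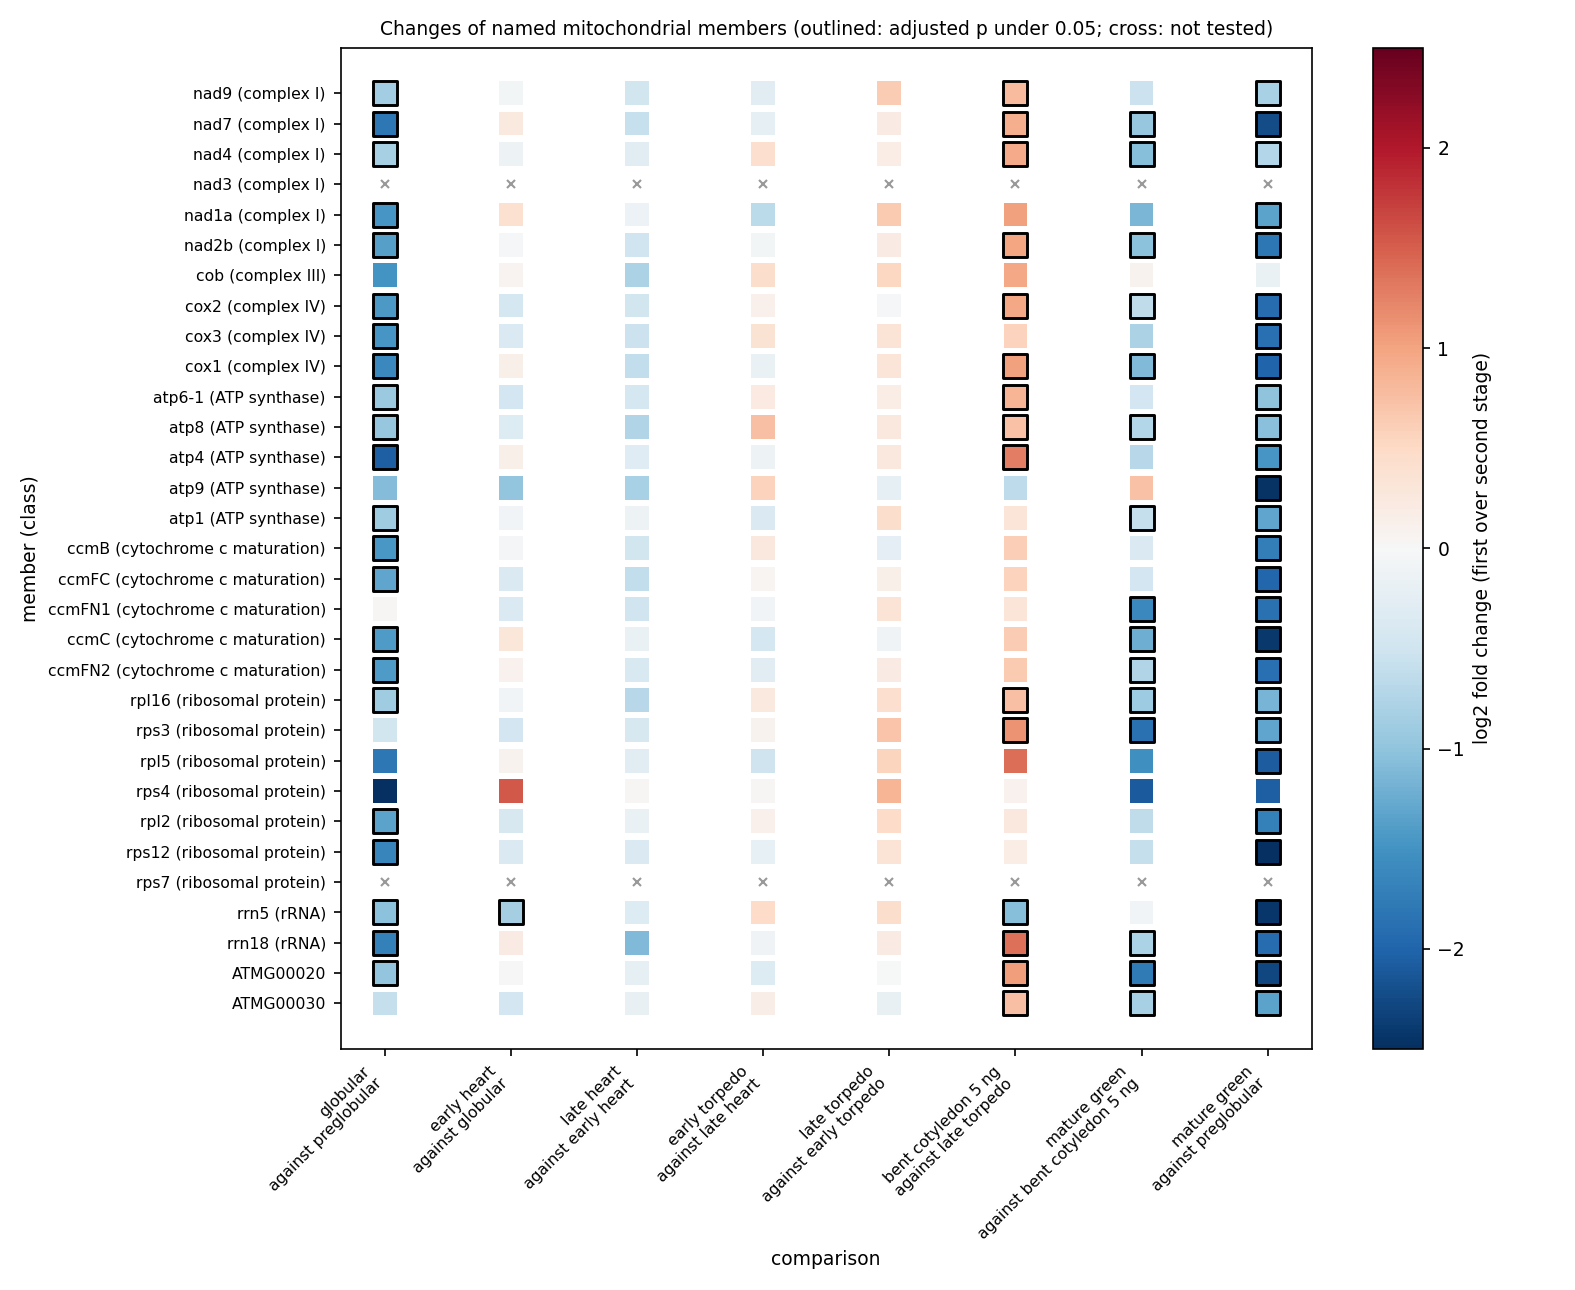
Fitted log2 fold changes (first over second stage, colour) of 29 named mitochondrial loci and of ATMG00020 and ATMG00030 in 8 stage comparisons, grouped by class, with the colour clipped at the ends of its scale, an outline where the edgeR adjusted p was under 0.05 and a cross where the locus was not tested. Outlined falls fill most of the first column (globular against preglobular) and of the last (mature green against preglobular), outlined rises appear at bent cotyledon against late torpedo, and the 4 columns from early heart to late torpedo hold 1 outline (rrn5).

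Of the 7 steps between neighbouring stages, the first had the most called loci. Globular against preglobular, 78 of 121 mitochondrial loci fell and none rose, while 12.2% of all tested loci were called lower, 11.4% higher and 23.6% either way. The median log2 fold change was -1.36 for the mitochondrial loci, 115 of which had a value below 0, and 0.00 for all tested loci. All 5 tested loci of complex I, all 3 of complex IV, 4 of 5 of the ATP synthase, 4 of 5 of cytochrome c maturation, 3 of 6 ribosomal proteins, both rRNAs and 55 of 81 loci without a name fell. Of the 13 loci of tRNA length 2 fell. On log2(TPM + 1) with limma, where the medians were -0.77 for the mitochondrial loci and 0.35 for all, 62 loci fell and 1, ccmFN1, rose. In that fit 2 of 5 loci of complex I fell, without nad9, nad4 and nad1a, and 1 of 5 of the ATP synthase, without atp1, atp6-1 and atp8. All 3 of complex IV, both rRNAs, 4 of 5 of cytochrome c maturation, 3 of 6 ribosomal proteins and 47 of 81 loci without a name fell, none of tRNA length did, and ATMG00020 did not pass (limma adjusted p = 0.0866). Without globular replicate 1 the number called was 47, and without preglobular replicate 3 it was 48, all of them among the 78.

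In this first step, atp4 had 5.27, 9.96 and 12.3 CPM in globular libraries, against 27.5, 41.4 and 45 CPM in preglobular libraries. The groups were far apart, with a log2 fold change of -2.06 (SE 0.33, edgeR adjusted p = 0.000119). For nad7 the log2 fold change was -1.81 (SE 0.27), for rrn18 -1.71 (SE 0.31) and for cox1 -1.60 (SE 0.32). The locus ccmFN1 stood apart from the rest of its class. It had 178, 146 and 204 CPM in globular libraries, against 166, 175 and 176 CPM in preglobular libraries, which overlapped (log2 fold change 0.03, SE 0.23, adjusted p = 0.954). ATMG00030, with -0.59 (SE 0.25, edgeR adjusted p = 0.0862), and rps3, with -0.48 (SE 0.30, adjusted p = 0.28), also did not pass, and ATMG00020 fell by 0.99 (SE 0.24).

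The 3 largest fitted falls of the step were those of ATMG00920, ATMG00470 and ATMG00650, at -2.61, -2.60 and -2.42. ATMG00920 had 0.0776, 4.04 and 3.83 CPM in globular libraries, against 14.1, 16.7 and 17.8 CPM in preglobular libraries, so 1 globular library was nearly without reads. With chromosome 2 copies added, ATMG00920 and ATMG00470 fell by 1.42 and 1.39. ATMG00650, which has no annotated copy, had 3.1, 5.32 and 7.71 CPM in globular libraries, against 23.1, 31.1 and 31.4 CPM in preglobular libraries. By its length ATMG00650 may be nad4L, as given above. For cob, rpl5, rps4 and atp9 the mitochondrial locus alone did not pass in this step, and with copies added each fell, by 1.28, 1.62, 1.20 and 1.48 on the log2 scale.

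The middle of the series held few called loci. Early heart against globular, 5 of 121 fell and none rose, while 9.03% of all tested loci were called lower, 8.57% higher and 17.6% either way. The 5 were ATMG00250 and ATMG09740, both of tRNA length, ATMG00690, rrn5 and ATMG00660, with log2 fold changes of -2.04 to -0.73. ATMG00690 had 11.8, 6.01 and 7.65 CPM in early heart libraries, against 20.9, 10.8 and 18.4 CPM in globular libraries, and the groups overlapped. The number called was 0 without the second early heart library and 2 without early heart replicate 3. It was 2 without globular replicate 1, 10 (9 lower, 1 higher) without globular replicate 2 and 1, a rise, without globular replicate 3. The median over the mitochondrial loci was -0.10, and turned to 0.19 on log2(TPM + 1) with limma, where the median of all loci was 0.24. In that fit 3 of the 5 fell, ATMG00660 and ATMG00690 did not pass (limma adjusted p = 0.0539 and 0.0621), and ATMG00470 and ATMG00300 rose (0.0139 and 0.0345). With its chromosome 2 copy added, ATMG00470 had a log2 fold change of -0.20 in edgeR (adjusted p = 0.605).

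Late heart against early heart, 1 locus fell, ATMG01370, while 1.23% of all tested loci were called lower, 1.22% higher and 2.45% either way. It had 8.63, 8.33 and 7.77 CPM in late heart libraries, against 16.1, 13.3 and 18.1 CPM in early heart libraries, without overlap. Over the whole series it had 5.60, 4.26 and 7.17 CPM in mature green libraries, against 33.6, 42.6 and 53.3 CPM in preglobular libraries (log2 fold change -2.93, SE 0.23, edgeR adjusted p = 1.85e-10). Its call in the late heart comparison was lost without early heart replicate 1 or 3 and without any 1 of the late heart replicates, and 3 loci were called without early heart replicate 2. Of the 121 loci 114 had a value below 0 in this step, with a median of -0.49 against 0.00 for all tested loci, and 16 had an unadjusted p under 0.05.

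Early torpedo against late heart, edgeR called 0 of 121 mitochondrial loci, with 13.3% of all tested loci called higher, 5.76% lower and 19.0% either way. Without adjustment, 7 had a p under 0.05. DESeq2 called 1 higher, and limma on log2(TPM + 1), where the median of all loci was -0.32, called 38 lower. Without early torpedo replicate 1, and likewise without replicate 3, edgeR called 1 lower. Late torpedo against early torpedo, edgeR, DESeq2 and limma called 0, with 0.666% of all loci called higher, 0.466% lower and 1.13% either way by edgeR, and 4 mitochondrial loci at an unadjusted p under 0.05.

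At bent cotyledon some of the mitochondrial loci were higher again, though the share called higher was near that of all loci. Against late torpedo, 20 of 121 loci rose, 1 fell and 100 did not pass, while 13.7% of all tested loci were called higher, 19.7% lower and 33.3% either way. The number of called loci was 7 without bent cotyledon replicate 1, 13 without replicate 2 and 10 without late torpedo replicate 3, and at most 31 with another library left out. The median log2 fold change was 0.61 for the mitochondrial loci and -0.04 for all. The risers were 4 of 5 tested loci of complex I, 2 of 3 of complex IV, 3 of 5 of the ATP synthase, 2 of 6 ribosomal proteins, rrn18 and 8 of 81 without a name. None of the 5 cytochrome c maturation loci and none of the 13 of tRNA length passed.

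The largest rise was that of rrn18, which had 628, 515 and 284 CPM in bent cotyledon libraries, against 179, 181 and 191 CPM in late torpedo libraries (log2 fold change 1.37, SE 0.30, edgeR adjusted p = 0.00148). All 3 bent cotyledon libraries were higher, replicate 3 by the least. ATMG00650 and atp4 followed, with log2 fold changes of 1.32 (SE 0.33) and 1.29 (SE 0.33). ATMG00020 had 21902, 21626 and 16539 CPM in bent cotyledon libraries, against 12037, 8913 and 8227 CPM in late torpedo libraries (log2 fold change 1.04, SE 0.24, adjusted p = 0.00241). Here too the groups did not overlap. The other named rRNA went the opposite way: rrn5 had 5.14, 3.87 and 3.80 CPM in bent cotyledon libraries, against 9.61, 10.2 and 6.78 CPM in late torpedo libraries (log2 fold change -1.06, SE 0.26, edgeR adjusted p = 0.00363). With copies added, rps7 rose by 1.65 (SE 0.28).

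Bent cotyledon replicate 3 was the lowest of its stage for rrn18, ATMG00650, atp4, ATMG00020 and rrn5. The bent cotyledon libraries had a measured RNA input and the smallest depth of the series, so that input, depth and stage cannot be told apart here.

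Mature green against bent cotyledon, 28 of 121 loci fell and 1 rose, while 28.2% of all tested loci were called lower, 27.2% higher and 55.4% either way, so that the share of mitochondrial loci called lower was no larger than that of all loci. The median log2 fold change was -0.54 for the mitochondrial loci and 0.01 for all. Among the falls, ATMG00020 had a log2 fold change of -1.76 (SE 0.25, edgeR adjusted p = 3.92e-06). The 3 largest were ATMG01280, ATMG00500 and rps3, a small-subunit protein of the mitochondrial ribosome. The values of rps3 were 53.4, 40.4 and 41.3 CPM in mature green libraries, against 235, 156 and 105 CPM in bent cotyledon libraries, with no overlap (log2 fold change -1.87, SE 0.32, edgeR adjusted p = 3.45e-05). ATMG00500 had 1.97, 0.609 and 0.667 CPM in mature green libraries, against 9.03, 12.7 and 5.95 CPM in bent cotyledon libraries, also without overlap. The log2 fold changes of ATMG01280 and ATMG00500 were -3.59 and -3.08, which were -1.23 and -2.22 with copies added.

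The only riser, ATMG01060, had 0.473, 0.685 and 1.83 CPM in mature green libraries, against 0.125, 0.323 and 0.413 CPM in bent cotyledon libraries, a low level on both sides. In cytochrome c maturation 3 of 5 loci fell, led by ccmFN1 at -1.60 (SE 0.23). In complex I 3 of 5 fell, in complex IV 2 of 3 and in the ATP synthase 2 of 5, where atp1 had a log2 fold change of -0.60 (SE 0.25, edgeR adjusted p = 0.0488). The number of called loci was 14 without bent cotyledon replicate 1 and 19 without mature green replicate 2. On log2(TPM + 1), where the median of all loci moved by -0.45, limma called 75 lower and none higher. The share of all loci called by limma is not given, so this count has no background beside it.

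Nuclear genes for the same organelle were read beside these loci from a pair of lists. Of 30 tested nuclear genes (of 32 listed) for the respiratory chain and alternative oxidases, 27 fell, 2 rose and 1 did not pass in mature green against preglobular, with a median log2 fold change of -1.51. Of 24 genes for mitochondrial genome upkeep, transcription and RNA processing, 20 fell, none rose and 4 did not pass, with a median of -1.74. Among all tested loci 37.4% were called lower in that comparison and 38.5% higher. In the first step, globular against preglobular, where 78 mitochondrial loci fell, 10 of the 30 respiratory genes fell, and of the 24 upkeep genes 1 fell and 2 rose, with 12.2% of all tested loci called lower and 11.4% higher. Early heart against globular, where 5 mitochondrial loci fell, 20 of the 30 respiratory genes and 1 of the 24 upkeep genes fell, with 9.03% of all loci called lower. At bent cotyledon against late torpedo, where 20 mitochondrial loci rose, 2 respiratory genes rose and 13 fell, and 10 upkeep genes fell with none higher, while 13.7% of all loci were called higher and 19.7% lower.

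Within 1 family the members moved in opposite directions. The succinate dehydrogenase iron-sulfur subunit SDH2-3 had 230, 284 and 342 CPM in mature green libraries, against 0.0907, 0.583 and 0.422 CPM in preglobular libraries (log2 fold change 9.59, SE 0.38, edgeR adjusted p = 3.86e-13). Its paralog SDH2-2 had 5.21, 4.11 and 5.42 CPM in mature green libraries, against 43.4, 47.0 and 49.4 CPM in preglobular libraries (log2 fold change -3.25, SE 0.14, adjusted p = 2.41e-14). The alternative oxidases are quinol oxidases that bypass complexes III and IV. AOX1C had 0, 0.0762 and 0 CPM in mature green libraries, against 5.76, 6.14 and 5.29 CPM in preglobular libraries, and AOX2 had 0.789, 0.381 and 1.08 CPM in mature green libraries, against 0, 0.0448 and 0 CPM in preglobular libraries. AT5G08680, annotated as an ATP synthase alpha/beta family protein, had a log2 fold change of -4.32 (SE 0.16). It is known as 1 of several near-identical genes for the beta subunit, so how reads were split among them is uncertain.

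Among upkeep genes, the largest falls were those of AT5G14580, a polyribonucleotide nucleotidyltransferase that degrades RNA, with a log2 fold change of -4.11 (SE 0.42), of PMH1, a putative mitochondrial RNA helicase, with -3.92 (SE 0.34), and of MSH1. MSH1, which guards the organelle genomes against recombination between repeats, had 2.84, 4.11 and 7.0 CPM in mature green libraries, against 31.3, 32.9 and 33.6 CPM in preglobular libraries (log2 fold change -2.81, SE 0.28, edgeR adjusted p = 9.58e-09). The groups did not overlap.

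Within Smart-seq2, the smallest RNA input was tested against the largest, and 0.5 and 1 ng are given by their shares only. At 0.1 ng against 5 ng, 83 of the 152 loci passed the filter, and edgeR, DESeq2 and limma called 0 of them, while edgeR called 0.205% of 17090 loci either way. A single locus had an unadjusted p under 0.05. The median was -0.25 for the mitochondrial loci and -0.03 for all tested loci, and 57 of the 83 were below 0. The mitochondrial share of TPM was 1.69% ± 0.181 at 0.1 ng, 1.77% ± 0.171 at 0.5 ng, 1.75% ± 0.183 at 1 ng and 1.70% ± 0.204 at 5 ng (SD, n = 3 each). Without 0.1 ng replicate 1, edgeR called 3 lower. A p that misses the threshold does not show equal levels, and replicate 3 at 0.1 ng held 1021484 counts.

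Between preparation methods larger differences were seen, although no test was made between them: each kit had 1 library per input, its inputs were not taken as replicates, and the labels do not tie the kit RNA to a replicate. Among loci averaging at least 1 TPM, a kit counted as higher or lower where its log2(TPM + 1) was apart from the Smart-seq2 mean by at least 2, on the same side, at each of 0.1, 0.5, 1 and 5 ng. With Ovation, 1 of 127 mitochondrial loci was higher and 9 were lower than in Smart-seq2, while 0.0816% of all loci measured were higher and 51.0% lower. The median difference was -0.63 for the mitochondrial loci and -2.42 for all loci. With SMARTer, 3 of 125 were higher and 15 lower, while 0.251% of all loci were higher and 0.845% lower, with medians of -1.25 and -0.65.

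The small-subunit rRNA rrn18 was the locus higher in both kits. At 0.1, 0.5, 1 and 5 ng it had 1487, 1262, 1791 and 1522 TPM with Ovation, against 213, 232, 239 and 218 TPM in the Smart-seq2 means. With SMARTer it had 2099, 2877, 2197 and 2880 TPM at these inputs. The lowest kit value lay far above the highest of the 12 Smart-seq2 libraries, 327 TPM. The other named rRNA did not share this: rrn5 had 4.79 to 28.8 TPM with Ovation and 0 to 63.7 TPM with SMARTer, against 40.1 to 120 TPM in Smart-seq2.

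The kits differed from each other for several subunits. For cob the 4 Ovation libraries had 46.7 to 63.9 TPM and the 4 SMARTer libraries 0, against 13.7 to 32.3 TPM in the 12 Smart-seq2 libraries. Adding the chromosome 2 copy gave 62.6 to 87.8 TPM with Ovation and 0.0786 to 9.52 TPM with SMARTer, against 39.2 to 79.2 TPM in Smart-seq2, so the SMARTer value was below the others on either count. For atp4, which has no alignment on chromosome 2 of the build, Ovation gave 59.1 to 91.1 TPM and SMARTer 0 to 4.97 TPM, against 29.3 to 47.8 TPM in Smart-seq2. For cox3 the values were 31.7 to 45.5 TPM with Ovation and 0 to 3.97 TPM with SMARTer, against 3.33 to 16.1 TPM in Smart-seq2. The abundant atp1 was lower in both kits, at 74.4 to 117 TPM with Ovation and 95.9 to 134 TPM with SMARTer, against 267 to 377 TPM in Smart-seq2.

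For other loci the split between genomes moved with the kit. The mitochondrial rpl5 locus was listed at 0 in all 8 kit libraries at these inputs, against 4.54 to 30.8 TPM in Smart-seq2. Its chromosome 2 copy had 22.3 to 37.0 TPM with Ovation and 9.15 to 18.6 TPM with SMARTer, against 22.3 to 44.8 TPM in Smart-seq2. For atp9 the mitochondrial locus had 18.9 to 48.9 TPM with SMARTer, against 0 to 13.6 TPM in Smart-seq2, while the sum with the copy was 44.0 to 68.4 TPM with SMARTer and 57.0 to 93.1 TPM in Smart-seq2. The higher atp9 level with SMARTer thus did not hold for the sum.

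The remaining loci named by the size of their difference were ccmFN1, ATMG00250, ATMG00490 and ccmFN2. The level of ccmFN1 was 6.85 to 10.7 TPM with Ovation, against 68.4 to 143 TPM in Smart-seq2, with 23.2 to 68.3 TPM in SMARTer libraries. ATMG00250, of tRNA length, was at 0 with Ovation, against means of 12 to 20.6 TPM in Smart-seq2. ATMG00490 had 19.9 to 117 TPM with SMARTer, against means of 0 to 1.92 TPM in Smart-seq2. The level of ccmFN2 was 0 to 1.24 TPM with SMARTer, against 13.1 to 28.8 TPM in Smart-seq2. No named locus of complex I or IV reached the difference in either kit. Of these, nad4 had 41.7 to 68.1 TPM with Ovation and 88.8 to 99.4 TPM with SMARTer, against 48.1 to 117 TPM in Smart-seq2. ATMG00513, which may be part of nad5, was lower by the rule with SMARTer, at 14.9 to 34.5 TPM, against 164 to 276 TPM in Smart-seq2. With Ovation it had 144 to 226 TPM.

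**Figure D4:**
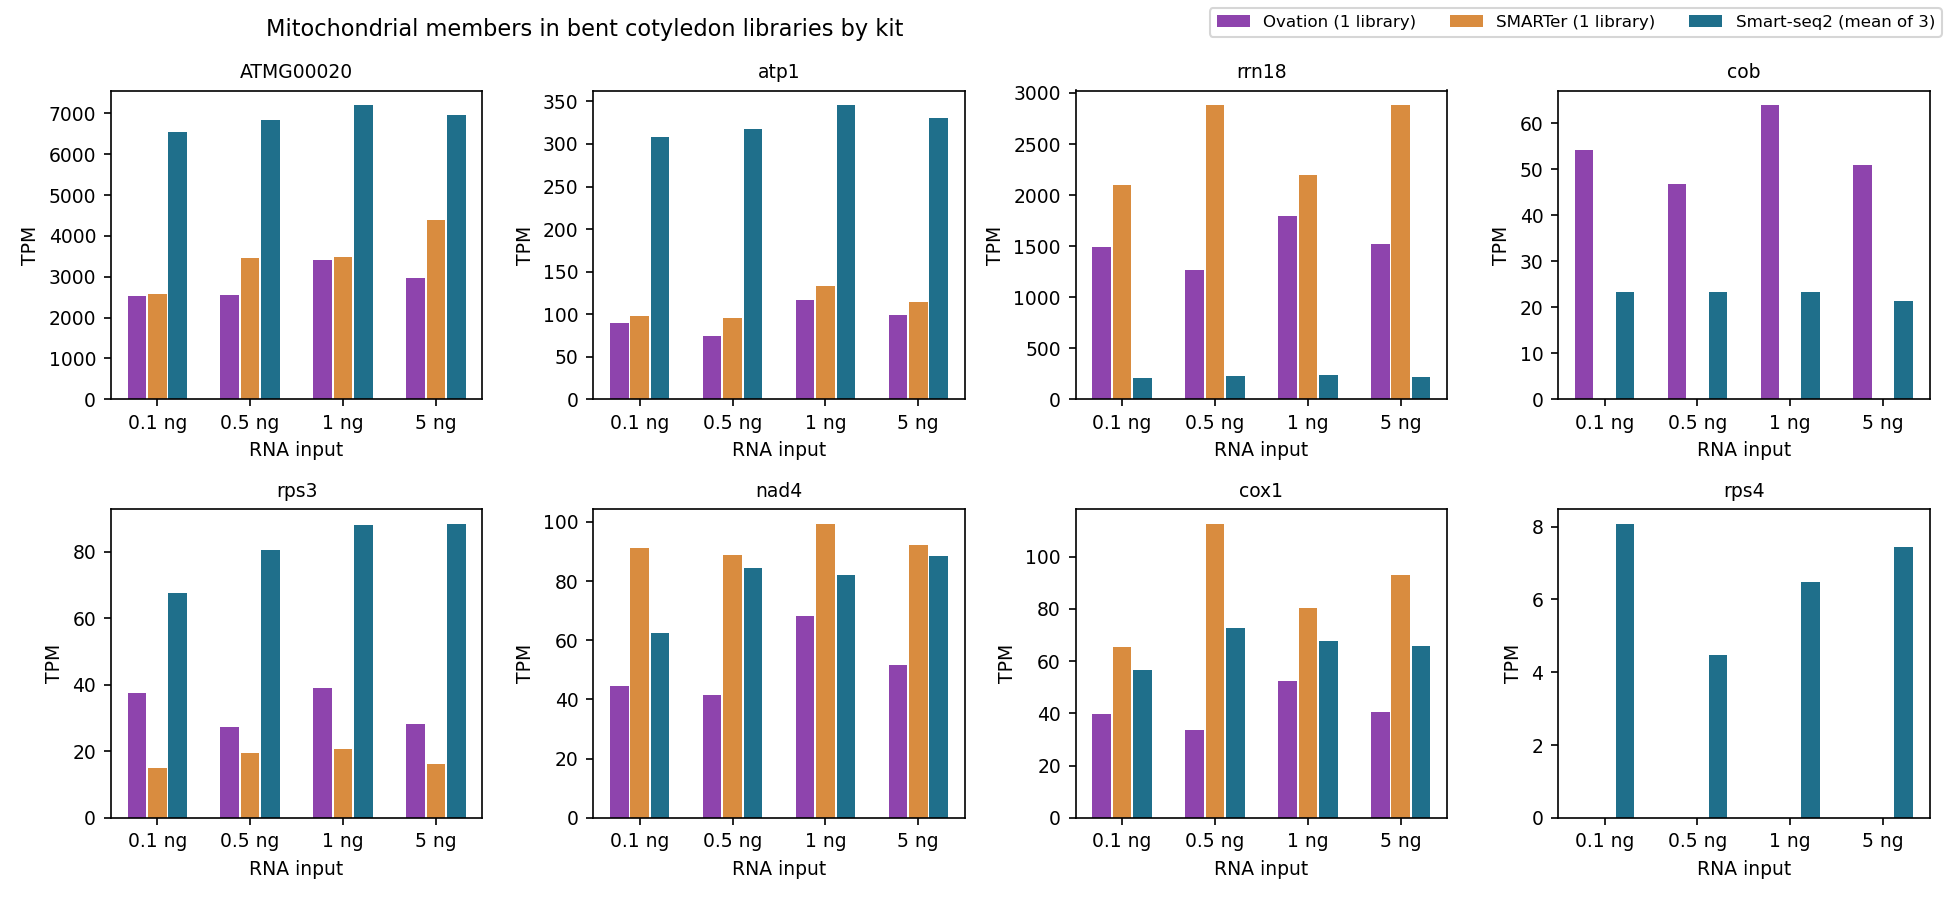
TPM of 8 mitochondrial loci in bent cotyledon libraries at 0.1, 0.5, 1 and 5 ng of RNA, with Ovation (left bar) and SMARTer (middle bar), 1 library each, and Smart-seq2 (right bar, mean of 3 libraries). Bars for rrn18 are tallest with SMARTer, those for atp1 and ATMG00020 with Smart-seq2, and cob has no bar with SMARTer.

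Within the kits, ATMG00020 and ATMG00030 still held most of the mitochondrial signal, at 70.5% of mitochondrial TPM in the 5 ng Ovation library and 67.8% in the 5 ng SMARTer library, against 83.0% ± 1.11 in Smart-seq2 at 5 ng (SD, n = 3). The mitochondrial share of all TPM at 5 ng was 1.15% with Ovation and 1.26% with SMARTer, against 1.70% ± 0.204 in Smart-seq2 (SD, n = 3). As a share of counts, which is not scaled to length, it was 3.51% with Ovation and 1.57% with SMARTer, against 2.42% ± 0.295 in Smart-seq2 (SD, n = 3), so that the order of the kits depended on the scale.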

How the data were processed

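RNA of Arabidopsis embryos was sequenced in 43 libraries. Cutadapt 1.9.1, kallisto 0.43.1 and the build TAIR10 are named per the submitters' processing notes, and their settings are not given in the sources used here. Each of the deposited tables gives the authors' estimated counts for 54845 transcripts, per the file headers, not scaled to depth. The deposited TPM values are scaled to length and sum over spike-ins too. The strand of the libraries is not given in the sources used here, so overlapping genes are uncertain.

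Both values were summed per locus. The summed estimated counts were rounded. EdgeR 4.0.16 then tested them (quasi-likelihood, after filterByExpr and TMM scaling, Benjamini-Hochberg adjusted p under 0.05 over all tested loci), with 1 fit of the 24 stage libraries and 1 of the 12 Smart-seq2 input libraries. Self-tests used simulated data. RefSeq (TAIR10.1) gave names and sequences, and blastn the alignments. Other tools were DESeq2 1.42.0 and limma 3.58.1 in R 4.3.3, and pandas 2.3.3, numpy 2.4.6 and matplotlib 3.10.9 in Python 3.11.15.

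Members, lists and tests were chosen with earlier results of these data known. Named were the loci of each complex, the 5 highest without a name, per comparison the 3 largest called changes each way, and likewise for nuclear lists and kits. ATMG00660, ATMG00300 and ATMG00470 in the early heart step, ATMG01370 and ATMG01110 over the series and the tissue markers were picked after values were seen.

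Amplified reads are not independent molecules, and p-values measure the spread between libraries. The 0.1 to 5 ng libraries of 1 number share an RNA, per the labels, and their residuals had a mean correlation of 0.163 within a number and -0.0814 between numbers. With the number as a block the input comparison still called 0. Alternatives were RLE size factors, DESeq2, limma on log2(TPM + 1), no filter, the replicate block, scaling by nuclear loci, chromosome 2 copies added and each library left out.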

Additional observations from a re-analysis of the deposited data

Results flagged for a closer look

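The 0.05 ng libraries of the kits had no Smart-seq2 counterpart and entered no comparison. Both held mitochondrial reads, at 3.14% of counts in the Ovation library and 1.41% in the SMARTer library. At 0.1 to 5 ng the share of counts was 3.16% to 3.51% with Ovation and 1.25% to 1.57% with SMARTer.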

How the results depend on the processing

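Leaving out 1 library at a time gave 47 to 80 called mitochondrial loci for globular against preglobular, 0 to 10 for early heart against globular, 0 to 3 for late heart against early heart, 0 to 1 for early torpedo against late heart and 0 for late torpedo against early torpedo. It gave 7 to 31 for bent cotyledon against late torpedo, 14 to 39 for mature green against bent cotyledon, 93 to 106 for mature green against preglobular and 0 to 3 for 0.1 ng against 5 ng. For the kits, leaving out Smart-seq2 replicates gave 7 to 10 loci with Ovation and 13 to 15 with SMARTer. DESeq2 called 2 in late heart and 1 in early torpedo, limma on log2(TPM + 1) called 7, 38, 33 and 75 in late heart, early torpedo, bent cotyledon and mature green against the stage before, no filter gave 2 in late heart, and adding chromosome 2 copies gave 1 in early torpedo. With a pseudocount of 0.1 the Ovation count was 16, and with a difference of 1 it was 38, as it was with SMARTer. The causes were not tested. As a share of counts instead of TPM, mitochondrial loci made up 3.00% at preglobular, 1.86% at late heart, 1.25% at early torpedo, 1.21% at late torpedo and 2.42% at bent cotyledon. Limma called 5 in early heart against globular, 2 higher and 3 lower, where edgeR called 5 lower. Over the loci tested in both fits, 1 changed sign with a call in either: ATMG01110, mature green against preglobular, had a log2 fold change of 0.80 (adjusted p = 0.454), and of -1.81 (adjusted p = 1.69e-05) with its chromosome 2 copy added. Among the single loci, 4024 values stayed on their side of the threshold, 64 moved past it and 140 lost it. Stage replicates share only a number: residuals of the same number had a mean correlation of -0.0149 (-0.356 to 0.347). With the replicate number as a block, 71 loci were called in globular against preglobular, 101 in mature green against preglobular, 20 in bent cotyledon against late torpedo and 27 in mature green against bent cotyledon. Scaling from nuclear loci outside the chromosome 2 insertion, chosen after seeing the data, gave 78, 101, 21 and 30 for these comparisons. Depth limits low loci: at 5 ng 91 to 97 of the 152 loci had 5 or more counts in bent cotyledon libraries.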
